A study of Mus musculus with 6 samples.

Results

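Fatty acid synthesis, desaturation and elongation were examined through 10 genes: the regulator Srebf1, the enzymes Acly, Acaca and Fasn, the desaturases Scd1, Scd2, Fads1 and Fads2, and the elongases Elovl5 and Elovl6. They were chosen by name, as genes that insulin is known to drive, and all 10 were found by symbol among the 45777 genes of the deposited table. RNA sequencing had been performed on tdTomato-positive cells sorted from the brains of male mice on a C57BL/6 background that carry Aldh1l1-CreERT2 and tdTomato fl/fl, and the labels give their genotype as WT. In both groups tamoxifen (75 mg/kg for 5 days) had induced tdTomato, a red fluorescent protein, wherever Aldh1l1, a folate enzyme used as an astrocyte marker, is expressed. At 8 weeks of age the STZ mice were injected once with streptozotocin (STZ) at 150 mg/kg, which destroys the pancreatic beta cells that make insulin, and were chosen by their blood glucose. The vehicle (Veh) mice received citrate buffer, and brains were taken 21 days after injection. There were 3 samples per group, each pooled from 3 mice, so that the spread between samples is a spread between pools, and p-values measure that spread. The samples held 52529048 to 58749115 counts, and the 22337 genes counted in all samples were tested, the 10 fatty acid genes among them.

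Cells build fatty acids from acetyl-CoA, lengthen them and place double bonds in them. Srebf1 encodes the transcription factor SREBP-1, which insulin activates in liver and which switches on the enzymes of this pathway. In the brain, astrocytes synthesize much of their own lipid and supply fatty acids to neurons, and the expression of SREBP target genes in brain has been tied to insulin. The question of the comparison was which of these genes differed in astrocytes 21 days after the beta cell toxin.

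Upstream sequences are shown for 4 of the enzymes, because genes of 1 pathway are often compared for shared promoter elements. The promoter windows of RefSeq (GRCm38.p6, the same assembly as the mm10 build of the files) run from 250 bases before to 50 bases after an annotated start, and 9 windows covering 7 of the 10 genes matched by symbol. Scd1, Scd2 and Fads1 had no entry. The 4 printed enzymes each held a match to a motif named below. The windows of Acaca and Elovl6 held no match to any of these motifs and are not printed. The Acaca window belongs to a start at chr11:84195438, inside the gene at chr11:84129635-84401651. The sequence before the first base of Acaca was thus not searched. Those of the regulator Srebf1 held matches and are not printed either. The 250 bases before the start are given 5′ to 3′ on the strand of the gene, with motif matches in capitals. Capitals mark the CCAAT box, named for its letters, the GC box, spelled GGGCGG, and the palindromic E-box, spelled CACGTG, each searched on both strands. The Acly stretch lies at chr11:100528001-100528250 on the minus strand, the Fasn stretch at chr11:120824548-120824797 on the minus strand, the Fads2 stretch at chr19:10101504-10101753 on the minus strand and the Elovl5 stretch at chr9:77917115-77917364 on the plus strand.
Acly: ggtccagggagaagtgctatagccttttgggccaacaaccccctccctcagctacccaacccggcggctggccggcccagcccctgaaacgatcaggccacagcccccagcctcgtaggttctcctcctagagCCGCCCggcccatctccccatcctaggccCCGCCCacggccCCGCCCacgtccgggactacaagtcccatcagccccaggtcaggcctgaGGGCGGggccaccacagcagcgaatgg
Fasn: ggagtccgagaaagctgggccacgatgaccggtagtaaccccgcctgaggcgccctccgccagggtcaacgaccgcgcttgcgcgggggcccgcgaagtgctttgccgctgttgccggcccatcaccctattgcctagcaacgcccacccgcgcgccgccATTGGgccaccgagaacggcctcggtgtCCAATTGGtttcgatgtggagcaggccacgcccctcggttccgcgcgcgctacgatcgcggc
Fads2: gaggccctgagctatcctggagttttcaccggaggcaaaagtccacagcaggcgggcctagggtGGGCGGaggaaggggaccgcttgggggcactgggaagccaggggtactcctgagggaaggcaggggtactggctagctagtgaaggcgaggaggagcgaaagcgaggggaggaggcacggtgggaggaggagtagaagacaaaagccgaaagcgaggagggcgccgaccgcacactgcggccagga
Elovl5: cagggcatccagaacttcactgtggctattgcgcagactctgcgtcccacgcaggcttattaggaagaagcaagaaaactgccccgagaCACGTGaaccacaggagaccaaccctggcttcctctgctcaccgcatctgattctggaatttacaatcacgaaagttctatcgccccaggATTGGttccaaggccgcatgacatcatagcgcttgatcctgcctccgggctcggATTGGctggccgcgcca

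A sterol regulatory element written as TCACNCCAC, 1 form of the sequence that SREBP binds, was found on neither strand in any of the 9 windows, and 1.24% of all 32851 RefSeq windows held it. That absence concerns these letters in these windows alone. The CCAAT box, the binding sequence of NF-Y, was found in 5 of the 9 windows and 4 of the 7 genes, beside 37.4% of all windows. Counted from the start of transcription, the 3 matches in the Fasn stretch began at positions -90, -62 and -59, and the last pair overlap each other. In Elovl5 the matches began at -71 and -17. The GC box, bound by Sp1 family factors, was found in 4 of the 9 windows and 3 of the 7 genes, beside 35.7% of all windows, with 4 matches in Acly and 1 in Fads2. The palindromic E-box was found in 1 of the 9 windows, that of Elovl5, at -161, beside 7.15% of all windows. No match to 1 motif overlapped a match to another in the printed stretches. These matches are descriptions of sequence, and binding was not measured.

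Scd1 and Scd2 are near copies of each other, so reads from the shared part of their coding sequence can be counted for either gene. The coding sequences of GENCODE M21 (GRCm38) were identical at 90.4% of aligned bases, and 14.2% of the 50-base windows of Scd1 occurred unchanged in Scd2. The longest run they share, 147 bases without a difference, is printed because a read inside it cannot be told apart between these genes. In Scd1 it covers coding bases 523 to 669, at chr19:44401693-44401805 in exon 4 and chr19:44400341-44400374 in exon 5, on the minus strand. In Scd2 it lies at chr19:44299702-44299814 in exon 4 and chr19:44301212-44301245 in exon 5, on the plus strand.
Scd1 and Scd2 shared coding run: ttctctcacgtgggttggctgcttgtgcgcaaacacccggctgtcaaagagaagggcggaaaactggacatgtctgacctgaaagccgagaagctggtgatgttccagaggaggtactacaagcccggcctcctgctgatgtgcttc
Scd3, another copy, shared 16.4% of the 50-base windows of Scd1. The coding sequences of Fads1 and Fads2 were 66.6% identical and shared no 50-base window, and those of Elovl5 and Elovl6 were 52.3% identical and shared none.

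All 10 genes had a negative log2 fold change in STZ-treated against vehicle-treated astrocytes with TMM scaling, though Srebf1 turned positive with library totals only, and Srebf1, Acaca and Fasn when scaled to astrocyte markers. The values ran from -0.62 for Scd1 to -0.06 for Srebf1, with a median of -0.33. The median over all 22337 genes was 0.01, and over the 5889 genes with a mean expression at or above that of Acaca, the lowest of the 10 in CPM (counts scaled to the library total with TMM factors), it was -0.04. With edgeR's quasi-likelihood test none of the 10 reached an adjusted p under 0.05 together with a change of over 1.5-fold, against 5 of all genes tested (0.0224%). At an unadjusted edgeR p under 0.05 there were 7 lower and 0 higher, against 5.65% lower over all genes and 12.6% lower over the 5889 genes of like or higher level. DESeq2, the tool of the study, called Scd1 lower at the same threshold, against 0.394% of all genes. Without the fold limit it called Acly, Scd1 and Scd2 lower, against 0.895% of all genes and 1.95% of the 5889 genes. That count of 3 became 2 (Acly and Scd1) without STZ replicate 1 or 2, and 7 without STZ replicate 3, when Fads1, Fads2, Elovl5 and Elovl6 passed as well. Over all genes, 153 of 22517 were called lower without STZ replicate 1, 136 of 22505 without STZ replicate 2 and 270 of 22548 without STZ replicate 3. The 3 samples of 1 group did not overlap the 3 of the other for 8 of the 10 genes, all lower in STZ, where 9.85% of all genes and 17.4% of the 5889 did so.

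**Figure D1:**
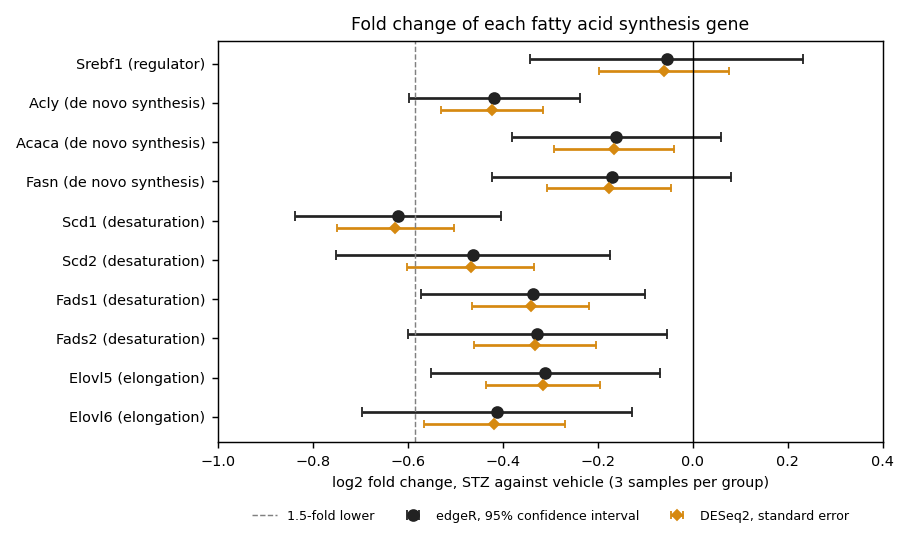
Log2 fold change of each of the 10 genes in STZ against vehicle samples (x axis), 3 samples per group; black points are edgeR with 95% confidence intervals, orange diamonds DESeq2 with standard errors, and the dashed line marks a 1.5-fold lower level. Every point lies below 0 with this scaling (Srebf1, Acaca and Fasn lie above it when scaled to astrocyte markers, Srebf1 also with library totals only), the intervals of Srebf1, Acaca and Fasn cross 0, and Scd1 at -0.62 is the only point past the dashed line.

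Srebf1 (NCBI gene 20787, chr11:60199084-60224186) encodes both SREBP-1 isoforms, which the gene count does not separate. Its level was 662, 549 and 592 CPM in vehicle replicates 1 to 3 and 675, 535 and 525 CPM in STZ replicates 1 to 3. The groups overlapped almost whole, and the first replicate was the highest in each. The log2 fold change was -0.06 (SE 0.123, 95% confidence interval -0.34 to 0.23, edgeR adjusted p = 0.893, DESeq2 adjusted p = 0.919). The mRNA of this regulator was therefore not distinguishable between groups at this replication, and the interval leaves room for a change of up to 0.34 downward or 0.23 upward on the log2 scale. Rai1, which overlaps the gene by 114 bases, had 3.75% as many counts. SREBP-1 is controlled in large part by cleavage of the protein, which RNA sequencing does not measure.

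In de novo synthesis, Acly was lower in every STZ sample than in any vehicle sample, while Acaca and Fasn had smaller differences whose intervals included 0. Acly (NCBI gene 104112, chr11:100476352-100528000) encodes ATP citrate lyase, which splits citrate to give acetyl-CoA in the cytosol. It measured 164, 151 and 144 CPM in vehicle and 113, 121 and 109 CPM in STZ samples. The highest STZ sample stood well under the lowest vehicle sample. The difference on the log2 scale was -0.42 (SE 0.0769, interval -0.60 to -0.24), with an edgeR adjusted p of 0.189 and a DESeq2 adjusted p of 0.00843, short of the fold limit.

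Acaca (NCBI gene 107476, chr11:84129635-84401651) encodes acetyl-CoA carboxylase 1, which makes the malonyl-CoA that feeds chain growth. Its level was 38.1, 32.1 and 32.2 CPM in vehicle and 31.4, 31.3 and 29.0 CPM in STZ samples. The groups did not overlap, but vehicle replicates 2 and 3 lay within 1 CPM of the highest STZ sample. On the log2 scale the fold change was -0.16 (SE 0.0944, interval -0.38 to 0.06, edgeR adjusted p = 0.551, DESeq2 adjusted p = 0.664). Tada2a, whose gene overlaps Acaca by 10 bases, had 88.3% as many counts as Acaca, and no source says whether strand was used in counting.

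Fasn (NCBI gene 14104, chr11:120805958-120825166) encodes fatty acid synthase, the enzyme that assembles palmitate. It measured 220, 180 and 179 CPM in vehicle and 190, 162 and 163 CPM in STZ samples. The first replicate was highest in each group, and that of STZ lay above the other two vehicle samples. Its log2 fold change in STZ was -0.17 (SE 0.108, interval -0.42 to 0.08, edgeR adjusted p = 0.576, DESeq2 adjusted p = 0.653).

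All 4 desaturases (Scd1, Scd2, Fads1 and Fads2) were lower in STZ without overlap and had an unadjusted edgeR p under 0.05. Of all genes, 9.85% were lower without overlap and 5.65% lower at that p. Of the 5889 genes of like or higher level the shares were 17.4% and 12.6%. The median log2 fold change of the 4 was -0.40. Scd1 (NCBI gene 20249, chr19:44394450-44407709) encodes a stearoyl-CoA desaturase, which makes oleate and palmitoleate, and is a textbook insulin-responsive gene of liver and fat. It measured 121, 99.0 and 98.0 CPM in vehicle and 68.6, 69.8 and 68.0 CPM in STZ samples. The STZ samples lay close together, with an SD of 0.895 CPM (n = 3) against 12.8 CPM (n = 3) in vehicle. The log2 fold change was -0.62 (SE 0.0929, interval -0.84 to -0.40), a change of -35.0%. The unadjusted edgeR p was 0.000202 and the adjusted p 0.157, while DESeq2 gave an adjusted p of 0.000125 and called the gene. Without vehicle replicate 1, the highest sample, the DESeq2 log2 fold change of Scd1 was -0.51 and no longer past the 1.5-fold limit.

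Scd2 (NCBI gene 20250, chr19:44293676-44306864) encodes the stearoyl-CoA desaturase that predominates in brain. It measured 2089, 1584 and 1682 CPM in vehicle and 1243, 1265 and 1378 CPM in STZ samples. The vehicle samples were spread over a wider range than the STZ samples, and the lowest of them was above all of STZ. Its log2 fold change in STZ was -0.46 (SE 0.124, interval -0.75 to -0.17, edgeR adjusted p = 0.301, DESeq2 adjusted p = 0.0293). The DESeq2 adjusted p was 0.167 without STZ replicate 1, 0.204 without STZ replicate 2 and 0.0687 with the replicate number as a block, so that the call without the fold limit was lost in each. Scd2 and Scd1 lie 87.6 kb apart on chromosome 19.

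Because Scd1 and Scd2 were measured in the same libraries, their ratio is free of library scaling. Scd1 stood at 5.77%, 6.25% and 5.83% of the Scd2 CPM in vehicle and at 5.52%, 5.52% and 4.94% in STZ samples. The ratio was lower in STZ in every sample, by -0.16 on the log2 scale (exact permutation test, two-sided, p = 0.1, the smallest p that 3 against 3 samples can give). As Scd2 was far more abundant, reads of the shared run assigned to the wrong copy weigh more on the Scd1 value than on the Scd2 value, and how the counting treated such reads is not given in the sources used here. The other copies were barely expressed, with 1.92 to 4.33 CPM for Scd3 and 0.240 to 0.646 CPM for Scd4.

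Fads1 (NCBI gene 76267, chr19:10182877-10196874), the delta-5 desaturase, and Fads2 (NCBI gene 56473, chr19:10062765-10101503), the delta-6 desaturase, act in turn on the way from the dietary essential fatty acids to arachidonate and docosahexaenoate. Fads1 measured 552, 458 and 464 CPM in vehicle and 371, 374 and 423 CPM in STZ samples. Its log2 fold change was -0.34 (SE 0.101, interval -0.57 to -0.10, edgeR adjusted p = 0.326, DESeq2 adjusted p = 0.136). Fads2 measured 1648, 1353 and 1392 CPM in vehicle and 1094, 1106 and 1301 CPM in STZ samples. Its log2 fold change was -0.33 (SE 0.117, interval -0.60 to -0.06, edgeR adjusted p = 0.387, DESeq2 adjusted p = 0.185). For both genes STZ replicate 3 was the highest of its group and came near the lowest vehicle sample.

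The genes Fads1 and Fads2 lie 81.4 kb apart, and their levels kept nearly the same proportion in all samples. Fads1 stood at 33.5%, 33.9% and 33.3% of the Fads2 CPM in vehicle and at 33.9%, 33.8% and 32.5% in STZ samples. The difference in log2 ratio was -0.0073 (exact permutation test, two-sided, p = 0.9). The SD of the log2 ratio was 0.0124 in vehicle and 0.0341 in STZ (n = 3 each).

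**Figure D2:**
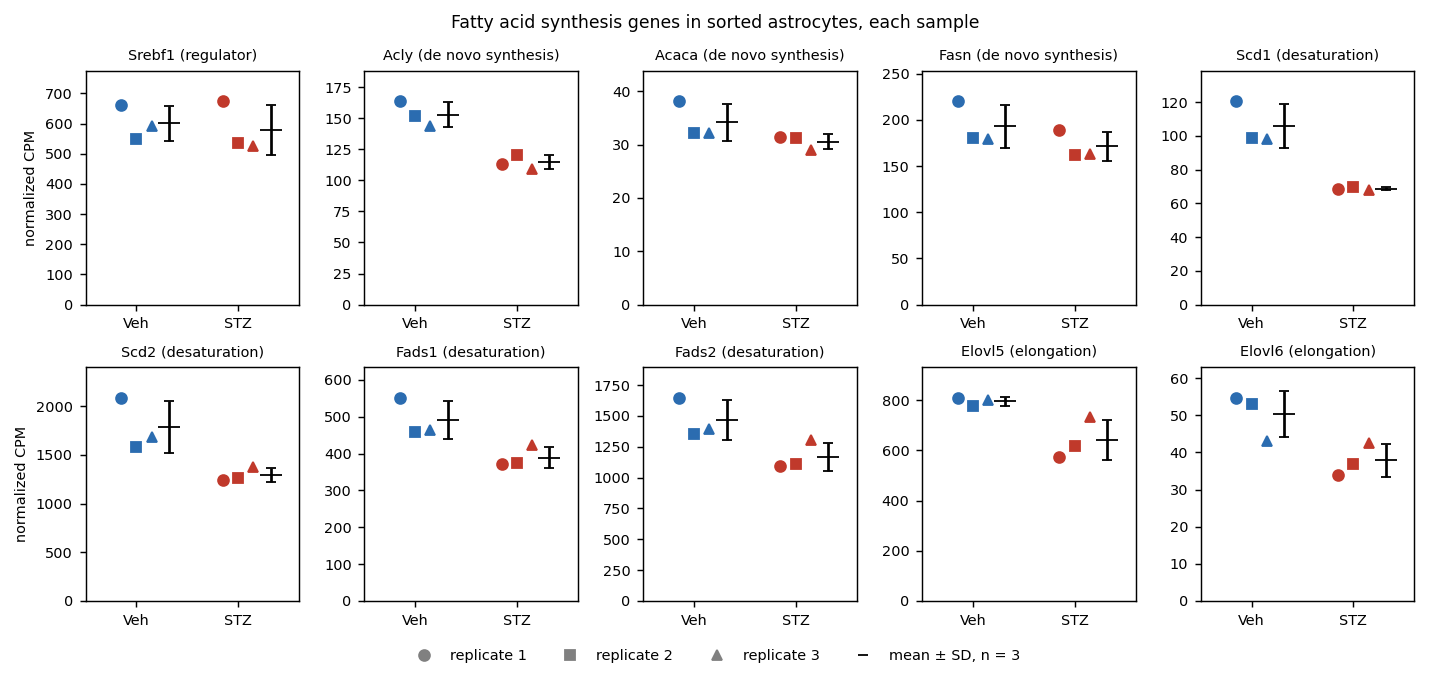
Normalized CPM of each gene in each of the 6 samples (y axes, each from 0), with vehicle in blue and STZ in red, replicates by marker shape, and the mean ± SD (n = 3) in black. The groups are apart in all panels but those of Srebf1 and Fasn, and vehicle replicate 1 is the highest vehicle sample in all 10.

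Both elongases were lower in STZ without overlap and had an unadjusted edgeR p under 0.05, with a median log2 fold change of -0.36. Over all genes the shares lower by these measures were 9.85% and 5.65%, and over the 5889 genes 17.4% and 12.6%. Neither elongase passed an adjusted test with all samples. Without STZ replicate 3, the highest STZ sample for both, the DESeq2 adjusted p was 0.000281 for Elovl5 and 0.0331 for Elovl6. Without vehicle replicate 3, the lowest vehicle sample of Elovl6, it was 0.0149 for Elovl6. Leaving out either of these samples widens the difference by construction. With each other sample left out, the DESeq2 adjusted p was 0.253 to 0.520 for Elovl5 and 0.287 to 0.444 for Elovl6. For Elovl5 that range includes vehicle replicate 3. Elovl5 (NCBI gene 68801, chr9:77917365-77984519) encodes the elongase of polyunsaturated chains that works between the Fads2 and Fads1 steps. It measured 810, 776 and 801 CPM in vehicle and 575, 618 and 731 CPM in STZ samples. The vehicle samples lay close together (SD 17.9 CPM, n = 3), and the STZ samples were spread out (SD 80.7 CPM, n = 3). On the log2 scale the fold change was -0.31 (SE 0.103, interval -0.55 to -0.07, edgeR adjusted p = 0.356, DESeq2 adjusted p = 0.175). The long noncoding gene Gm34771, which overlaps Elovl5 by 5334 bases, had 1.38% as many counts.

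Elovl6 (NCBI gene 170439, chr3:129532386-129638495) encodes the elongase that turns palmitate into stearate, the substrate of the Scd enzymes. It measured 54.8, 53.2 and 43.2 CPM in vehicle and 34.0, 36.9 and 42.6 CPM in STZ samples. Replicate 3 of vehicle and of STZ were nearly level, so the groups were apart by less than 1 CPM. The log2 fold change was -0.41 (SE 0.122, interval -0.70 to -0.13, edgeR adjusted p = 0.318, DESeq2 adjusted p = 0.130).

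By role, the median log2 fold change was -0.17 for the 3 de novo synthesis genes, -0.40 for the 4 desaturases and -0.36 for the 2 elongases. Whether the roles differ from each other was not tested. Of the vehicle samples, replicate 1 was the highest in 10 of 10 genes, whereas in STZ the highest was replicate 3 for 5 genes, replicate 1 for 3 and replicate 2 for 2.

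Levels of different genes were compared per length, as the FPKM of the authors (fragments per kilobase of transcript, scaled to the mapped fragments), in the vehicle samples. Fads2 was the most abundant at 464 ± 49.2 FPKM (SD, n = 3), followed by Scd2 at 301 ± 44.2 and Elovl5 at 264 ± 5.27. Fads1 at 130 ± 13.7 and Srebf1 at 129 ± 11.9 had overlapping ranges. Acly was next at 31.9 ± 2.03, and then Scd1 at 20.1 ± 2.37 and Fasn at 17.9 ± 2.12, whose ranges also overlapped. Elovl6 at 7.79 ± 0.961 and Acaca at 3.04 ± 0.249 were lowest. All other neighbours in this order were apart in every vehicle sample, though Scd2 and Elovl5 barely so, with 268.1 FPKM in the lowest Scd2 and 267.7 FPKM in the highest Elovl5 sample. By mean FPKM over all samples the 3 genes of polyunsaturated chains ranked high among the 22337 genes, Fads2 at 97, Elovl5 at 213 and Fads1 at 521. Scd2 at 184 and Srebf1 at 480 ranked in the same range, while Scd1 ranked at 4210 and Elovl6 at 7275. Of the 3 genes of de novo synthesis, Acly ranked at 2739 and Fasn at 4144, both above Scd1, and Acaca at 10478, below Elovl6.

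Around these genes, 39 others of the pathway were listed by role, and 38 were tested, Elovl3 being without a count in at least 1 sample. With TMM scaling, 25 of the 38 had a negative and 13 a positive log2 fold change, with a median of -0.10. EdgeR called none, and at an unadjusted p under 0.05 there were 5 lower (Insig1, Acss2, Elovl4, Acsl4 and Acsl6, of which Acsl4 was named after its value was seen) and 0 higher, beside 5.65% lower over all genes and 12.6% over the 5889 genes. DESeq2 called 1 lower, Insig1, against 0.394% of all genes. Without the fold limit it called 2 lower, Insig1 and Acss2, against 0.895% of all genes and 1.95% of the 5889. The groups did not overlap for 10 genes lower and 3 genes higher in STZ, beside 9.85% of all genes lower (17.4% of the 5889) and 8.64% of all genes higher.

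Insig1, which holds the SREBP precursor in the endoplasmic reticulum and is itself an SREBP target, had a log2 fold change as large as that of Scd1. It measured 248, 194 and 213 CPM in vehicle and 126, 145 and 147 CPM in STZ samples. The log2 fold change was -0.65 (SE 0.109, interval -0.90 to -0.39, edgeR adjusted p = 0.169, DESeq2 adjusted p = 0.000249). Without vehicle replicate 1 the DESeq2 log2 fold change was -0.54, short of the fold limit. The other regulators had a median near 0: over all 12, with Insig1, it was -0.03, with 7 negative and 5 positive. Mid1ip1, a partner of acetyl-CoA carboxylase and the most abundant of them, was at -0.23 (SE 0.103, edgeR adjusted p = 0.458).

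Acss2, which makes cytosolic acetyl-CoA from acetate as Acly does from citrate, measured 239, 223 and 209 CPM in vehicle and 142, 177 and 173 CPM in STZ samples. All STZ samples lay under all vehicle samples, with a log2 fold change of -0.45 (SE 0.102, interval -0.69 to -0.21, edgeR adjusted p = 0.256, DESeq2 adjusted p = 0.0246). The DESeq2 adjusted p of Acss2 was 0.0637 without vehicle replicate 1, 0.130 without vehicle replicate 2, 0.0645 without STZ replicate 1 and 0.0849 with the replicate block. Cyb5a, the cytochrome b5 that hands electrons to the desaturases, was instead at 115, 119 and 117 CPM in vehicle and 122, 136 and 132 CPM in STZ samples. Its log2 fold change was 0.15 (SE 0.0686, interval -0.01 to 0.31, edgeR adjusted p = 0.462), so it did not share the sign of the enzymes it serves, without passing the test.

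In elongation, Elovl4, which makes very long chains, was at -0.31 (SE 0.109, edgeR adjusted p = 0.371), and Tecr, the reductase of the last elongation step and the most abundant gene of that role, was at -0.16 (SE 0.0831, edgeR adjusted p = 0.521). Among the acyl-CoA synthetases, which activate fatty acids, Acsl6 was at -0.26 (SE 0.0967, edgeR adjusted p = 0.396) and Acsl3, the most abundant, at -0.10 (SE 0.113, edgeR adjusted p = 0.778). None of these 4 passed an adjusted test with DESeq2 either.

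**Figure D3:**
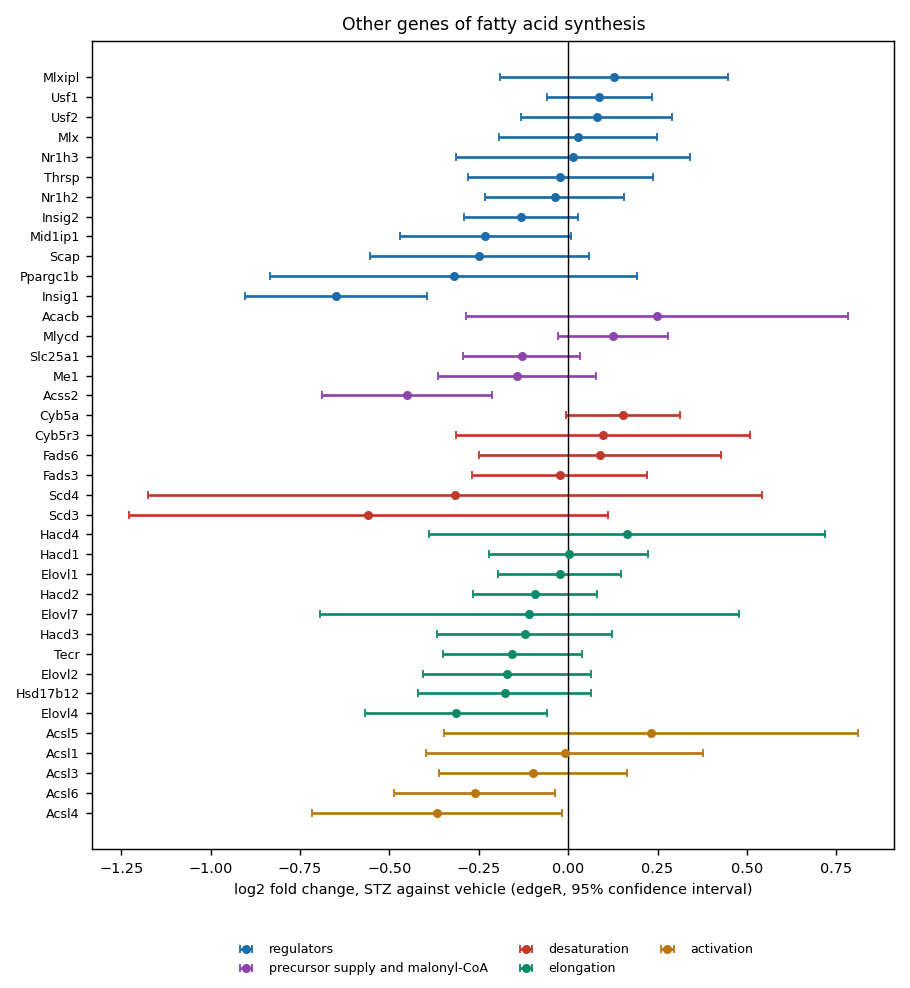
Log2 fold change in STZ against vehicle samples (x axis, edgeR, 95% confidence intervals, 3 samples per group) for the 38 tested genes of the wider list, coloured by role. Of the genes whose interval lies below 0, Insig1 at -0.65 and Acss2 at -0.45 have the lowest values, and most other intervals cross 0, among them that of Scd3 at -0.56.

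Markers of astrocytes and of other cell types moved with the comparison, and their part in the results was not tested. In bulk samples fewer cells of a type and less RNA per cell cannot be told apart. All 5 astrocyte markers were present, at a summed 3248 to 3831 FPKM in vehicle and 3045 to 3394 in STZ samples. All 5 had a negative log2 fold change, with a median of -0.22 and 2 of them at an unadjusted edgeR p under 0.05. Aqp4 had the lowest value of the 5 at -0.48, with a DESeq2 adjusted p of 0.0169. Each of the 7 endothelial markers was positive, with a median log2 fold change of 1.26, 6 of them at an unadjusted p under 0.05, and a sum of 14.2 to 48.7 FPKM in vehicle and 43.3 to 88.6 in STZ samples. The 4 pericyte and smooth muscle markers summed to 21.2 to 27.1 FPKM in vehicle and 33.1 to 42.8 in STZ samples, 2 of them at an unadjusted p under 0.05. Choroid plexus markers, chiefly Ttr, were high in both groups, at 4235 to 12757 FPKM in vehicle and 6874 to 11659 in STZ samples. The lowest sum was that of vehicle replicate 1, against 11981 and 12757 in the other vehicle samples. The 3 choroid plexus markers all had a negative log2 fold change, with a median of -0.37. The 3 ependymal markers all had a positive log2 fold change, with a median of 0.84. None of these markers reached an unadjusted edgeR p under 0.05. Microglial (88.2 to 139 FPKM), neuronal (17.9 to 38.0), ependymal (26.0 to 150) and oligodendrocyte precursor markers (0.960 to 1.66) had no gene at an unadjusted p under 0.05, and no marker was at 0 in any sample.

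Oligodendrocytes, which also make fatty acids for myelin, left a signal that set 2 libraries apart. Their 6 markers summed to 838 FPKM in vehicle replicate 1 and 1249 in STZ replicate 1, against 342 to 485 in the other 4 samples. Vehicle replicate 1 was the highest vehicle sample for all 10 genes. STZ replicate 1 was the highest STZ sample for 3 of the 10 (Srebf1, Acaca and Fasn). It was the lowest STZ sample for 5 (Scd2, Fads1, Fads2, Elovl5 and Elovl6). Without both libraries the log2 fold change of Srebf1 was -0.11, that of Fasn -0.15, that of Scd1 -0.52 and that of Scd2 -0.31. The median of the 10 genes was -0.22, and 3 of them were lower at an unadjusted p under 0.05. Over all 23056 genes tested without both libraries, 1245 were lower at that threshold.

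**Figure D4:**
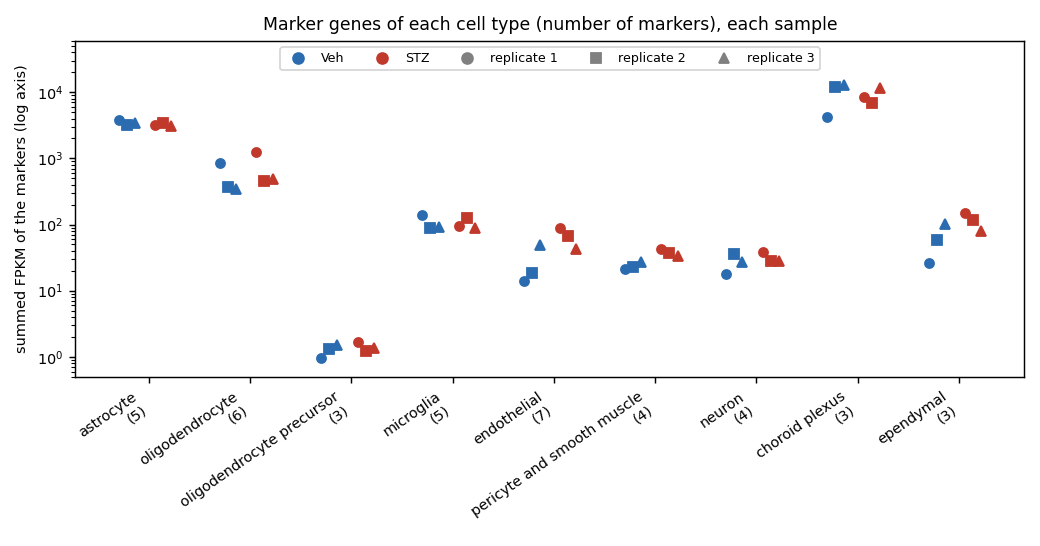
Summed FPKM of the markers of each cell type (y axis, log scale) in each sample, vehicle in blue and STZ in red, replicates by marker shape, with the number of markers in parentheses. Oligodendrocyte markers are highest in replicate 1 of both groups, endothelial and pericyte markers tend to be higher in STZ, and astrocyte markers differ little on this scale.

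When libraries were scaled to the 5 astrocyte markers instead of by TMM, the median of all genes moved from 0.01 to 0.24, and the fatty acid genes must be read against that shift. Aqp4, 1 of these markers, was itself lower in STZ with TMM, at -0.48. The scaling was not run without Aqp4. On that scale Srebf1 (0.19), Acaca (0.08) and Fasn (0.07) had positive log2 fold changes, while Scd1 stayed at -0.38, Scd2 at -0.22, Acly at -0.18 and Elovl6 at -0.18. The median of the 10 genes was -0.09, and 2 of them were lower at an unadjusted p under 0.05. Over all 22337 genes, 184 were lower and 4762 higher at that threshold on this scale. All 10 lay below the median of all genes with TMM. Rescaling the libraries moves every gene by nearly the same amount, so their place below the median on the astrocyte scale adds no support.

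**Figure D5:**
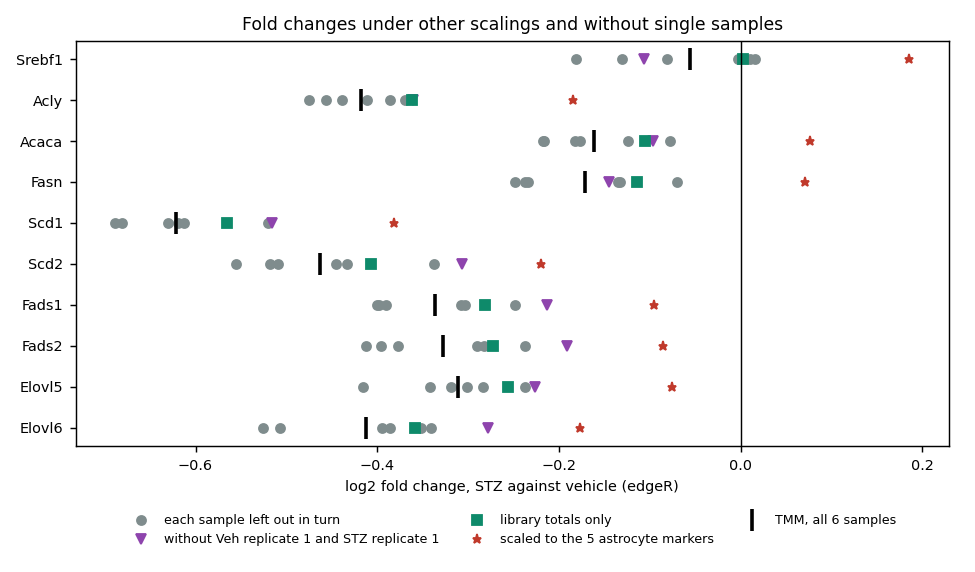
Log2 fold change of each gene in STZ against vehicle (x axis, edgeR) with all samples and TMM (black bars), with each sample left out in turn (grey), without replicate 1 of both groups (purple), with library totals only (green) and scaled to the 5 astrocyte markers (red stars). Acly, the desaturases and the elongases stay below 0 in all of these, and Srebf1, Acaca and Fasn lie on both sides of 0.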

How the data were processed

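RNA of sorted astrocytes was sequenced from 3 STZ and 3 vehicle samples. Per the labels, libraries were made with a SMART-Seq mRNA kit, and the submitters' processing notes name Trimmomatic 0.38, HISAT2 2.1.0, StringTie 2.1.3b, SAMtools 1.9 and the build mm10. The deposited table lists, for each gene and sample, a raw read count in whole numbers. The authors also gave FPKM, which divide fragments by transcript length and mapped fragments, and TPM, which sum to 999946.2 to 999982.0 per sample. How reads that match several genes were counted is not given in the sources used here.

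The test was edgeR 4.0.16 (R 4.3.3) with TMM scaling, its two-sided quasi-likelihood test and Benjamini-Hochberg adjustment over the 22337 genes counted in all samples. The study's threshold was used, an adjusted p under 0.05 together with a change of over 1.5-fold. CPM values are TMM-normalized. Groups were compared for overlap on CPM, and ratios by exact permutation tests. At this depth 3 counts correspond to 0.0511 to 0.0571 CPM, a floor that covers counting error only. No pair of samples was alike within sampling noise (17.2 to 88.7 chi-square units per gene).

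The members and lists were chosen with earlier results of these data known. The text names all 10 genes and, of the wider list, genes called by either tool and otherwise the gene with the smallest p and the most abundant gene of each role. The alternatives were DESeq2 1.42.0, DESeq2 size factors, library totals, no filter or filterByExpr, the replicate block, robust fitting, limma 3.58.1 on log2(TPM + 1) and log2(TPM + 0.1), and leaving out each sample in turn. Scaling to astrocyte markers, leaving out replicate 1 of both groups, DESeq2 with the block, with single samples left out and without the fold limit (also together) were chosen after seeing the data. The fits were tested on simulated data.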

Additional observations from a re-analysis of the deposited data

How the results depend on the processing

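Over all genes edgeR called 5. The count was 10 with robust fitting, 0 with limma on log2(TPM + 1) or log2(TPM + 0.1), 0 without replicate 1 of both groups, 0 scaled to astrocyte markers and 0 to 1 when single samples were left out. DESeq2 called 234 genes, or 383 without the fold limit. With single samples left out DESeq2 called between 121 (without STZ replicate 1) and 696 (without vehicle replicate 3) genes, among them 127 without vehicle replicate 2, 135 without STZ replicate 2, 365 without STZ replicate 3 and 215 without vehicle replicate 1. Of the 10 fatty acid genes DESeq2 called 1 (Scd1), and 0 to 1 with a sample left out. Without the fold limit it called 3 of them with all samples, 2 without STZ replicate 1, without STZ replicate 2 or with the block, 4 without vehicle replicate 3 and 7 without STZ replicate 3. Over all genes DESeq2 then called 200 lower with all samples, 153 without STZ replicate 1 and 136 without STZ replicate 2. With the block it called 99 lower, without vehicle replicate 3 it called 218 and without STZ replicate 3 it called 270. Of the wider list it called 1 (Insig1), 2 without the fold limit, and 0 to 1 with a sample left out. The calls of Scd1 and Insig1 with the fold limit were both lost without vehicle replicate 1. Their DESeq2 adjusted p stayed under 0.05 there (6.2e-08 and 0.000346), while that of Acss2 was 0.0637. The count of fatty acid genes lower at an unadjusted edgeR p under 0.05, 7 with all samples, was 5 to 7 with a sample left out, 3 without replicate 1 of both groups and 2 scaled to astrocyte markers. Over all genes that count was 1262 with all samples and 918 to 1333 with a sample left out. It was 1245 without replicate 1 of both groups and 184 scaled to astrocyte markers. The median log2 fold change of the fatty acid genes, -0.33, ranged from -0.41 to -0.27 with a sample left out. It was -0.22 without replicate 1 of both groups and -0.091 scaled to astrocyte markers. Srebf1, at -0.18 to 0.016 with a sample left out, turned positive with library totals only (0.0021), without vehicle replicate 1 (0.016 with edgeR, 0.023 with DESeq2), without STZ replicate 3 (0.0099) and scaled to astrocyte markers (0.19), as did Acaca (0.076) and Fasn (0.070) on that last scale. The Fads1 to Fads2 log2 ratio difference was -0.019 to 0.012 with a sample left out, and positive without STZ replicate 3. The cause was not tested for any of these. The lowest count of any fatty acid gene in a sample was 1667 (Acaca). The other 7 fatty acid genes had a negative log2 fold change under every alternative run.

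The samples share replicate numbers across groups, but no source states a pairing, and the deviations of same-numbered samples from their group means correlated at -0.184 to -0.101, so the numbers were not taken to pair the samples. Blocking on the replicate number left 0 genes called by edgeR and 124 by DESeq2, of which 1 was a fatty acid gene and 1 a gene of the wider list.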
